A study of Mus musculus with 2 samples.

Results

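The AP-1 transcription factors and Blimp1 were followed in RANKL-treated mouse bone marrow cultures, in 1 library labelled MMP9_KO and 1 control library. The set was chosen by a rule on gene symbols alone and holds 10 genes of the 26037 in the deposited table: the Fos family (Fos, Fosb, Fosl1 and Fosl2), the Jun family (Jun, Junb and Jund), the AP-1 related genes Jdp2 and Batf3, and Prdm1, which encodes Blimp1. All 10 symbols had an entry. Cells of both groups came from marrow of C57BL/6 mice aged 6 to 8 weeks. The first culture held 10% serum and 5 ng/ml of M-CSF. Its non-adherent cells were kept for 3 days in M-CSF at 30 ng/ml, and the adherent macrophages then received RANKL for 3 days. MMP9_KO cells and control cells share strain, culture and RANKL treatment and differ in genotype, per the labels, which call both primary osteoclasts. The headings of the table add "sh" to the MMP9_KO column and "NCsh" to the control column. The labels explain neither term and do not say how Mmp9 was removed, whether by deletion or silencing, or how many animals gave each culture.

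AP-1 is a family of basic leucine zipper (bZIP) proteins that bind DNA as dimers. Jun proteins pair with each other or with Fos proteins, whereas Fos proteins need a Jun partner. In osteoclast precursors RANKL induces Fos, mice that lack Fos form no osteoclasts, and AP-1 acts with NFATc1 on osteoclast genes. NFATc1 in turn induces Prdm1, and Blimp1 represses genes that hold back osteoclast formation, among them Irf8 and Bcl6.

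The promoters of 3 genes are shown because each holds the letters of an AP-1 or CRE type site close to its start: Prdm1, the gene of the set with the lowest ratio in these libraries, and Fos and Jun, which name their families. Each run gives the 250 bases before a RefSeq start site, 5′ to 3′ on the gene's strand, in build GRCm38.p6. Capitals mark a match to an AP-1 or CRE type site. None of these bases lies in an annotated exon of the same gene. In Prdm1 (chr10:44458749-44458998, minus strand) the capitals match TGANTCA, the AP-1 site also called TRE, and in Jun (chr4:95052223-95052472, minus strand) they match TGACNTCA, the CRE type of site. In Fos (chr12:85473640-85473889, plus strand) they match TGACGT, the core of a CRE.
Prdm1: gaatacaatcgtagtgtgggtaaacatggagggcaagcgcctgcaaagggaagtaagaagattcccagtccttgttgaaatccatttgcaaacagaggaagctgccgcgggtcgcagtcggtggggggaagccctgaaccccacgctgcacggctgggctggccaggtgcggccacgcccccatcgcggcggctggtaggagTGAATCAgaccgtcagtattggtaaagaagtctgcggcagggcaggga
Jun: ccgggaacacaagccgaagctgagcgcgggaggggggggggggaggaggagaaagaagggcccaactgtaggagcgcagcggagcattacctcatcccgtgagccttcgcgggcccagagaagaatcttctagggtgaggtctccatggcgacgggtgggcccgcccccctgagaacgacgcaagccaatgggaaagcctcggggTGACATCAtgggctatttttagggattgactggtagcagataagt
Fos: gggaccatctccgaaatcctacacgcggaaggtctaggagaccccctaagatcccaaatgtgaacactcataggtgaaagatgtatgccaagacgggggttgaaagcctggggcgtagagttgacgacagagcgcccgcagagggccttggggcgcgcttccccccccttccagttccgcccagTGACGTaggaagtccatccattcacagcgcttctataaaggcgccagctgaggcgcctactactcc
The match begins 48 bases before the start in Prdm1, 45 in Jun and 66 in Fos. Both strands were searched, and the CRE core lies within the CRE type motif where the N is G. RefSeq windows matched 9 of the 10 genes, all but Fosl1, with 11 windows in all because Jdp2 has 3. The TRE letters were in 1 of the 11 windows and in 6.75% of 32851 windows of all genes. CRE type letters were in 1 window and in 7.49% of all, and the CRE core in 2 windows, of Fos and Jdp2, and in 6.47% of all. The CArG box, the site of serum response factor, was in 0 of the 11 windows and in 1.47% of all. A match is a description of these letters and not evidence of binding. The search ended 250 bases before a start, so a count of 0 says nothing of sites further away.

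Of the 10 genes, 8 had a mean normalised read count of at least 1 over both libraries and were compared. At a threshold of 2-fold, 1 was higher in the MMP9_KO library (Fosl1), 2 were lower (Fosl2 and Prdm1) and 5 were within 2-fold (Fos, Jun, Junb, Jund and Jdp2). Over all 11126 compared genes, 13.6% were past 2-fold, with 4.00% higher and 9.58% lower. The median log2 ratio was -0.57 for the 8 genes, beside -0.16 for all compared genes. With 1 library per group there is no replicate check and no test between genotypes. The normalised read count is the number of reads multiplied by 1 factor per library, not divided by gene length. A log2 ratio is that of MMP9_KO over control after a pseudocount of 1, and calls at 2-fold were made on it. A fold printed as such carries no pseudocount. Ranges in parentheses are 95% intervals that cover counting error alone. Reads inferred from the deposited values summed over genes to 17741432 for MMP9_KO and 20678441 for control, which is not the full sequencing depth. The reads carry no molecular identifiers and are not independent molecules, which makes such intervals too narrow.

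**Figure D1:**
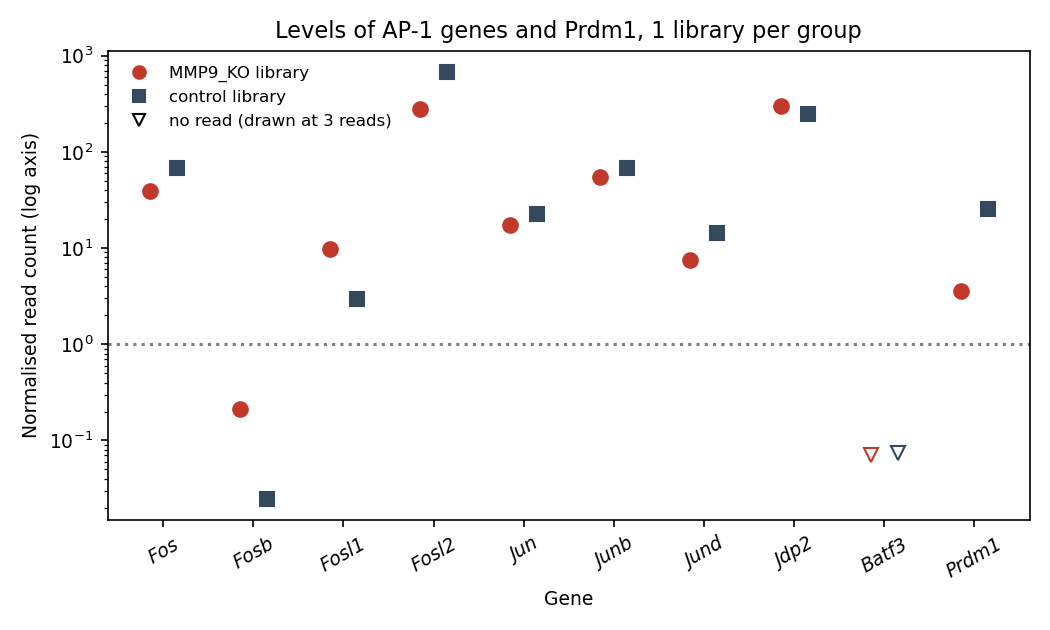
Normalised read counts (log axis) of the 10 genes in the MMP9_KO library (circles) and the control library (squares), 1 point per library. Open triangles mark Batf3, which had no read and is drawn at the level of 3 reads. The dotted line is the level of 1 needed for comparison, and Fosl1, Fosb and Jdp2 are the genes whose circle stands above the square.

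Mmp9, the check of the genotype label, had a normalised read count of 3.87 in the MMP9_KO library against 139 in the control library. It was 36.0-fold lower in MMP9_KO. Mmp9 is also an osteoclast gene, and the other 8 osteoclast markers, among them the protease gene Ctsk and the phosphatase gene Acp5, were lower too, by 5.81-fold to 96.5-fold. Loss of Mmp9 through the genotype and through lower osteoclast RNA thus cannot be told apart. The summed level of these 8 markers was 215 in the MMP9_KO library and 6307 in the control library. Of 9 macrophage markers 7 were compared, with 5 higher and 1 lower and a median log2 ratio of 3.03. All 9 summed to 1362 in the MMP9_KO library and 1008 in the control library. Csf1r, the M-CSF receptor gene, had the largest part of that sum, at 564 in MMP9_KO and 751 in control. Lyz2, the lysozyme gene, was at 423 in MMP9_KO and 50.8 in control, and Fcgr1 had 0 reads in control and passed the level filter only through MMP9_KO. Both libraries thus had reads of the defining osteoclast markers, at far lower levels in MMP9_KO. Calcr (0.190), Oscar (0.261) and Itgb3 (0.475), which has the fold of 96.5, were under 1 there. In bulk RNA fewer osteoclasts and less RNA per osteoclast cannot be told apart. The part of this cell make-up in the values below was not tested. Markers of other cell types that express AP-1 genes, Batf3 or Prdm1 left little signal, apart from Sdc1 in the B and plasma cell list. T and NK cell markers summed to 0 in the MMP9_KO library and 0.0497 in the control library, with 6 of 7 at 0 in both. Granulocyte markers summed to 1.31 and stromal and osteoblast markers to 0.166 in the MMP9_KO library, against 0.149 for either list in the control library. Each of these lists had 5 of 8 genes at 0 in both libraries. Dendritic cell markers summed to 2.11 in the MMP9_KO library and 6.06 in the control library, with Flt3 and Cd209a at 0 in both. Most of it was Zbtb46, the 1 compared gene of the list, at 1.24 in MMP9_KO and 4.40 in control, 3.56-fold lower. B and plasma cell markers summed to 3.63 in MMP9_KO and 44.4 in control. Nearly all of that was Sdc1, at 3.33 in MMP9_KO and 44.3 in control, 13.3-fold lower. Ms4a1, Pax5 and Igj were at 0 in both libraries. Which cells gave the Sdc1 reads was not tested.

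Fosl2, which encodes Fra-2 and restrains osteoclast size in mice, was the most abundant Fos gene. Its normalised read count was 281 in the MMP9_KO library and 675 in the control library, from 11825 reads in MMP9_KO and 27173 in control. The MMP9_KO library was the lower, by 2.40-fold (2.35 to 2.46). The log2 ratio of -1.26 was number 654 from the lowest among the 11126 compared genes, and it stood at -1.10 relative to the median of all genes. The call depended on scaling, since the log2 ratio was -0.98 with the libraries set to equal sums and -0.97 once ratios were centred by GC content.

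Fos, the immediate early gene that RANKL induces, was at 39.1 in the MMP9_KO library and 67.9 in the control library. It was 1.74-fold lower in MMP9_KO (1.63 to 1.85), with a log2 ratio of -0.78, or -0.62 relative to the median of all genes. Fosl1, which encodes Fra-1 and can replace Fos in mouse osteoclast precursors, went the other way. Its level was 9.76 in the MMP9_KO library and 2.93 in the control library, from 411 reads in MMP9_KO and 118 in control. Fosl1 was thus 3.33-fold higher in MMP9_KO (2.71 to 4.12), and its log2 ratio of 1.45 was number 270 from the highest of all compared genes. With a pseudocount of 5 that log2 ratio was 0.90. The last part of Fosl1 shares 1163 exonic bases with the antisense gene Ccdc85b in the GENCODE annotation. No source used here states whether counting used strand, so reads of the pair cannot be told apart.

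Fosb, another immediate early gene, was scarcely detected. It had 9 reads, a level of 0.214, in the MMP9_KO library and 1 read, a level of 0.0248, in the control library. The ratio was 8.60 with a wide interval from 1.19 to 377, and Fosb did not reach the level for comparison. Gene totals do not separate its full-length product from the truncated ΔFosB.

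**Figure D2:**
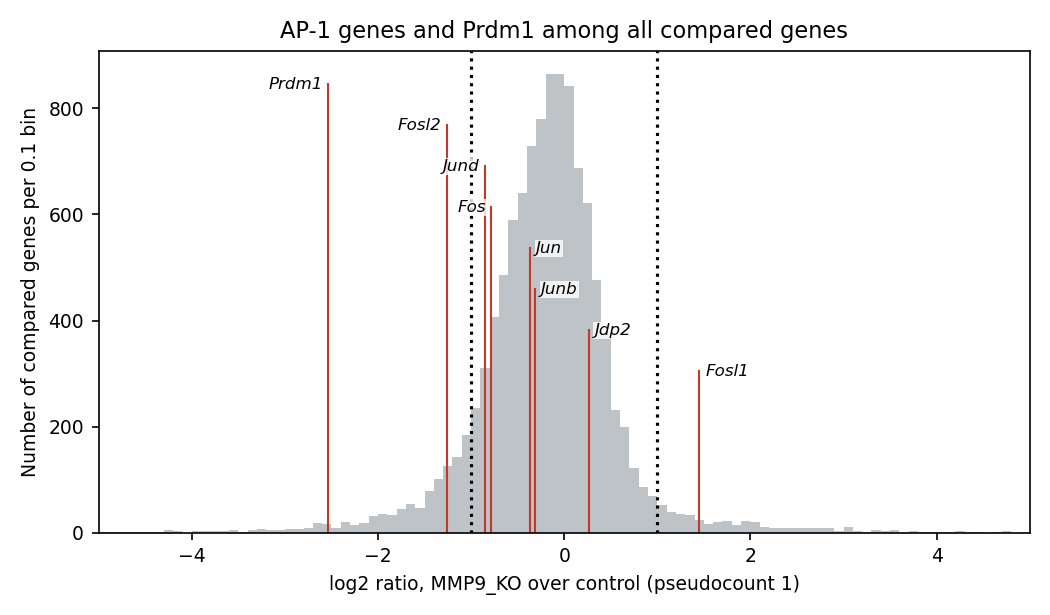
Histogram of log2 ratios, MMP9_KO over control, of the 11126 compared genes in bins of 0.1, drawn from -5 to 5, with red lines at the 8 compared AP-1 genes and Prdm1 (line heights only separate the names). Dotted lines mark 2-fold; Prdm1 at -2.53 and Fosl2 at -1.26 lie beyond the lower one, Fosl1 at 1.45 beyond the upper one.

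Junb and Jun lay near the median of all genes, and Jund below it. Junb, which lacks an intron and encodes the partner most abundant here, had a normalised read count of 54.3 in the MMP9_KO library and 67.5 in the control library. That is 1.24-fold lower in MMP9_KO (1.18 to 1.31). Jun was at 17.5 in MMP9_KO and 22.8 in control, 1.30-fold lower (1.18 to 1.44). Relative to the median of all genes the log2 ratio was -0.15 for Junb and -0.20 for Jun. After centring by GC content their log2 ratios turned positive, at 0.25 for Junb and 0.01 for Jun. Jund, described as the growth-restraining Jun, was the lowest of the 3. Its level was 7.58 in the MMP9_KO library and 14.5 in the control library, from 319 reads in MMP9_KO and 582 in control. It was 1.91-fold lower in MMP9_KO (1.66 to 2.19), with a log2 ratio of -0.85, which was -0.29 after centring by GC content. Its longest transcript has a GC content of 67.1%, the highest of the 10 genes.

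Antisense neighbours overlap all 3 Jun genes in the annotation. Jund shares 877 exonic bases with Gm11175, which was at 1.69 in the MMP9_KO library and 5.76 in the control library. Junb shares 173 with Prdx2, at 53.3 in MMP9_KO and 110 in control. Jun shares 232 with Junos, at 0.594 in MMP9_KO and 1.59 in control. All 3 neighbours were lower in the MMP9_KO library, Gm11175 by 3.42-fold, Prdx2 by 2.06-fold and Junos by 2.68-fold, and their part in the Jun values was not tested.

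Levels per kb of the longest transcript summed to 66.8 for the Fos family in the MMP9_KO library and 137 in the control library, and to 40.1 for the Jun family in MMP9_KO and 53.1 in control. The Fos sum was 2.05-fold lower in MMP9_KO (2.01 to 2.10), and the Jun sum 1.33-fold lower (1.27 to 1.39). Both folds move with the scaling of the libraries, and with equal sums they were 1.68 for Fos and 1.09 for Jun. Ratios and shares within a library need no such scaling. They were not centred by GC content, which moved the genes unequally, Junb from -0.31 to 0.25 and Fosl2 from -1.26 to -0.97. Their intervals do not cover this. Fos family level per kb was 1.67 times that of the Jun family in the MMP9_KO library (1.60 to 1.74) and 2.58 times in the control library (2.50 to 2.67). Fosl2 made up 64.3% of the Fos family sum in the MMP9_KO library (63.3 to 65.4) and 75.4% in the control library (74.6 to 76.1). Fosl1 held 7.84% in MMP9_KO (7.13 to 8.55) and 1.15% in control (0.942 to 1.35), and Fos itself 27.7% in MMP9_KO (26.7 to 28.8) and 23.5% in control (22.8 to 24.2). The level of Fosl1 per kb was therefore 0.283 of that of Fos in the MMP9_KO library and 0.0489 in the control library, a shift of 5.79-fold (4.67 to 7.16). Within the Jun family, Junb made up 75.0% in MMP9_KO (73.6 to 76.4) and 70.2% in control (68.9 to 71.6). Jun kept a like share, at 13.7% in MMP9_KO (12.7 to 14.6) and 13.4% in control (12.6 to 14.3). Jund held 11.3% in MMP9_KO (10.2 to 12.5) and 16.3% in control (15.1 to 17.5). These shares depend on the transcript length assumed for each gene, whereas Fosl2 stayed the leading Fos gene and Junb the leading Jun gene with any of the lengths tried.

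**Figure D3:**
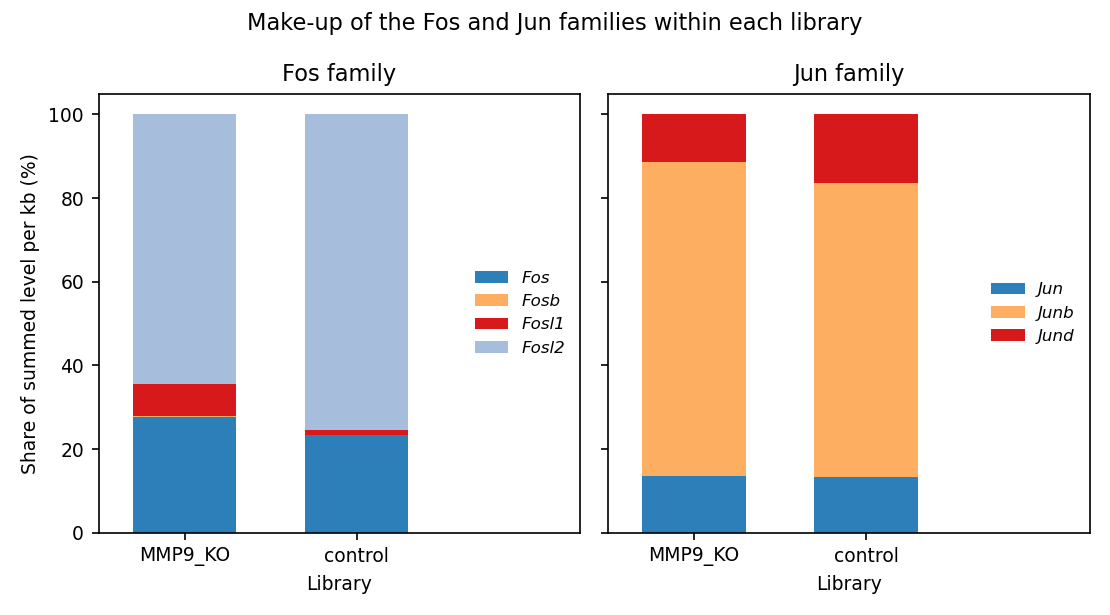
Share of each gene in the summed level per kb of its family, as stacked bars of 100%, in the MMP9_KO library (left bar) and the control library (right bar), for the Fos family and the Jun family. Fosl2 fills 64.3% of the Fos bar in MMP9_KO and 75.4% in control, and the Fosl1 band is wider in MMP9_KO; Fosb is at most a hairline.

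Jdp2 encodes a Jun dimerisation partner that can repress AP-1 and that mice need for normal osteoclast formation. It was at 299 in the MMP9_KO library and 249 in the control library, from 12581 reads in MMP9_KO and 10020 in control. Jdp2 was 1.20-fold higher in MMP9_KO (1.17 to 1.23), with a log2 ratio of 0.26, or 0.42 relative to the median of all genes. Per kb it was the most abundant of the 10 genes in both libraries, at 182 in MMP9_KO and 151 in control. That level lay above 99.2% of all genes with a read in MMP9_KO and above 98.6% in control. Next in the order of levels per kb came Fosl2, at 43.0 in MMP9_KO and 103 in control. Jdp2 level per kb was 4.23 times that of Fosl2 in the MMP9_KO library and 1.47 times in the control library. The ratio of the pair was thus 2.89-fold higher in MMP9_KO (2.79 to 2.98), whatever the scaling of the libraries. The order of the pair rests on the lengths assumed. Without division by length Fosl2 led in control, at 675 against 249 for Jdp2.

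The remaining order per kb also differed between the libraries. In MMP9_KO it ran Junb (30.0), Fos (18.5), Jun (5.48), Fosl1 (5.24), Jund (4.54), Prdm1 (0.670) and Fosb (0.0565), where Jun and Fosl1 were neighbours of nearly the same level. In control it ran Junb (37.3), Fos (32.2), Jund (8.67), Jun (7.14), Prdm1 (4.79), Fosl1 (1.57) and Fosb (0.00657). With 1 library per group the spread that would separate such neighbours is not known.

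Batf3, which is needed for the dendritic cells that cross-present antigen, had 0 reads in either library. With 3 reads taken as the limit of a count of 0, its level could be as high as 0.0713 in MMP9_KO and 0.0745 in control, so no fold is given. Its relative Batf had 102 reads, a level of 2.42, in MMP9_KO and 0 reads in control. Taking 3 reads as the limit in the control library, Batf was at least 32.5-fold higher in MMP9_KO.

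Prdm1 had the lowest ratio of the set. Its normalised read count was 3.54 in the MMP9_KO library and 25.3 in the control library, from 149 reads in MMP9_KO and 1017 in control. It was 7.14-fold lower in MMP9_KO (6.01 to 8.54), and its log2 ratio of -2.53 was number 120 from the lowest among all compared genes. Relative to the median of all genes the log2 ratio was -2.37, and it kept its place past 2-fold under each alternative tried, between -2.80 and -1.83. Per kb, Prdm1 lay above 31.0% of the genes with a read in MMP9_KO and above 59.9% in control. It was lower relative to Nfatc1 as well, which was at 177 in MMP9_KO and 378 in control. The ratio of Prdm1 to Nfatc1 was 3.33-fold lower in MMP9_KO (2.80 to 3.97), whereas that of Fosl2 to Nfatc1 was 1.12-fold lower (1.08 to 1.16).

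Genes known to be repressed by Blimp1 lay on both sides of an equal level. Of 8 listed, 4 were compared, with 1 higher by at least 2-fold, 0 lower and 3 within, beside 4.00% higher and 9.58% lower of all genes. Their median log2 ratio was 0.24. Irf8, a transcription factor gene that restrains osteoclast formation, was at 9.45 in MMP9_KO and 0.745 in control, 12.7-fold higher (8.74 to 19.0), and passed the level filter only through MMP9_KO. Bcl6 encodes a repressor of osteoclast genes. Its level was 10.6 in MMP9_KO and 5.96 in control, 1.78-fold higher (1.52 to 2.10) and within 2-fold. The other two compared genes were lower in MMP9_KO, the growth gene Myc by 1.20-fold (1.12 to 1.28) and Id3, an inhibitor of helix-loop-helix factors, by 1.72-fold (1.48 to 2.01). Set against each other per kb, Prdm1 was at 0.246 times the level of Irf8 in the MMP9_KO library and 22.3 times in the control library. The order of the pair was thus opposite in the libraries, and Prdm1 and Bcl6 likewise stood at 0.248 in MMP9_KO and 3.16 in control.

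The letters GTGAAAG, a core shared by Blimp1 and interferon regulatory factor sites, were in 0 of 7 windows of 5 matched genes of this list and in 3.57% of all windows. They were in 2 of the 11 windows of the AP-1 genes and Prdm1, those of Fos and Jund. In the Fos run above they are left in lower case.

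The list of osteoclast genes that receive AP-1 or NFATc1 input includes Mmp9 itself. The other 11 were all lower by at least 2-fold, with a median log2 ratio of -3.58, beside 9.58% lower and -0.16 for all genes. Calcr, Oscar and Itgb3 were under 1 in MMP9_KO and passed the level filter only through control. These genes are known osteoclast genes, and 8 of them are the osteoclast markers given above, so the count is no separate observation. Nfatc1, the factor with which AP-1 acts, was 2.14-fold lower in MMP9_KO (2.08 to 2.20). Its log2 ratio of -1.10 was close to the 2-fold line, so its call depends on scaling. Acp5 was 16.1-fold and Ctsk 87.2-fold lower.

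Among other bZIP genes that share partners or sites with AP-1, 15 of 18 were compared. By log2 ratio 0 were lower by at least 2-fold, 12 were within and 3 were higher, Batf, Atf3 and Maf, beside 9.58% lower and 4.00% higher of all genes. Atf3 encodes a stress-induced repressor that binds the same CRE sites as Jdp2. It was at 8.86 in MMP9_KO and 0.596 in control, 14.9-fold higher (9.83 to 23.5). Jdp2 per kb was still 40.7 times as abundant as Atf3 in MMP9_KO, against 504 times in control. Maf, a macrophage factor, was at 12.2 in MMP9_KO and 0.149 in control, 81.9-fold higher (37.4 to 224). Batf, Atf3 and Maf were each under 1 in the control and passed the level filter only through MMP9_KO, so nothing is read from the count of 3. Maff, another bZIP gene, was at 2.80 in MMP9_KO and 5.67 in control, 2.02-fold lower (1.61 to 2.55) but within 2-fold by its log2 ratio of -0.81. Of the compared genes of this list, Maff was nearest to Prdm1 by log2 ratio, yet 1.72 away. Bzip genes of the set itself were left out of that search, and Fosl2, at -1.26, was nearer. With 2 libraries a pattern is a single ratio.

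MAP kinase pathway and serum response factor genes carry the RANK signal to AP-1. Of 23 compared, 0 were higher, 2 were lower and 21 were within 2-fold, so 8.70% were past 2-fold, near the 13.6% of all genes. Their median log2 ratio was -0.01, which turned positive under each scaling tried, and 0 were then lower by 2-fold. The lower ones were the MAP kinase kinase genes Map2k2, at 31.8 in MMP9_KO and 71.2 in control (2.24-fold, 2.10 to 2.39), and Map2k3, at 92.2 in MMP9_KO and 190 in control (2.06-fold, 1.98 to 2.14). Map3k1, Map3k7 and Map3k8, the kinases at the head of the cascade, had log2 ratios between 0.27 and 0.54.

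Other immediate early genes share rapid induction with Fos and Junb. Of 14 compared, 3 were higher, 1 was lower and 10 were within 2-fold, so 28.6% were past 2-fold beside 13.6% of all genes, with a median log2 ratio of -0.11 that turned positive under each scaling tried. Ier3 was 3.71-fold higher in MMP9_KO (3.29 to 4.19), the phosphatase gene Dusp2 4.28-fold (3.92 to 4.68) and the antiproliferative gene Btg2 8.27-fold (5.95 to 11.8). Btg2, at 0.994 in control, passed the level filter only through MMP9_KO. Klf10, a TGF-beta induced factor gene, was 3.55-fold lower in MMP9_KO (3.05 to 4.15). Egr1 was at 1.66 in MMP9_KO and 3.53 in control, 2.12-fold lower (1.58 to 2.87) but within 2-fold by its log2 ratio of -0.77, and Egr2 at 2.68 in MMP9_KO and 3.75 in control. Fos and Junb, with log2 ratios of -0.78 and -0.31, lay inside this range.

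Fos also induces Ifnb1, the interferon-beta gene, in a feedback that limits Fos protein in mouse osteoclast precursors. Ifnb1 itself had 0 reads in both libraries. Of the other 6 genes of this loop, 4 were higher by at least 2-fold, 0 lower and 2 within, with a median log2 ratio of 1.66, beside 4.00% higher and 9.58% lower of all genes. Among the higher ones were the interferon signalling genes Stat2 (2.99-fold, 2.64 to 3.40), Irf9 (4.45-fold, 3.93 to 5.05) and Irf7 (32.2-fold, 24.6 to 43.1). The receptor genes Ifnar1 and Ifnar2 had log2 ratios of -0.64 and -0.13.

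**Figure D4:**
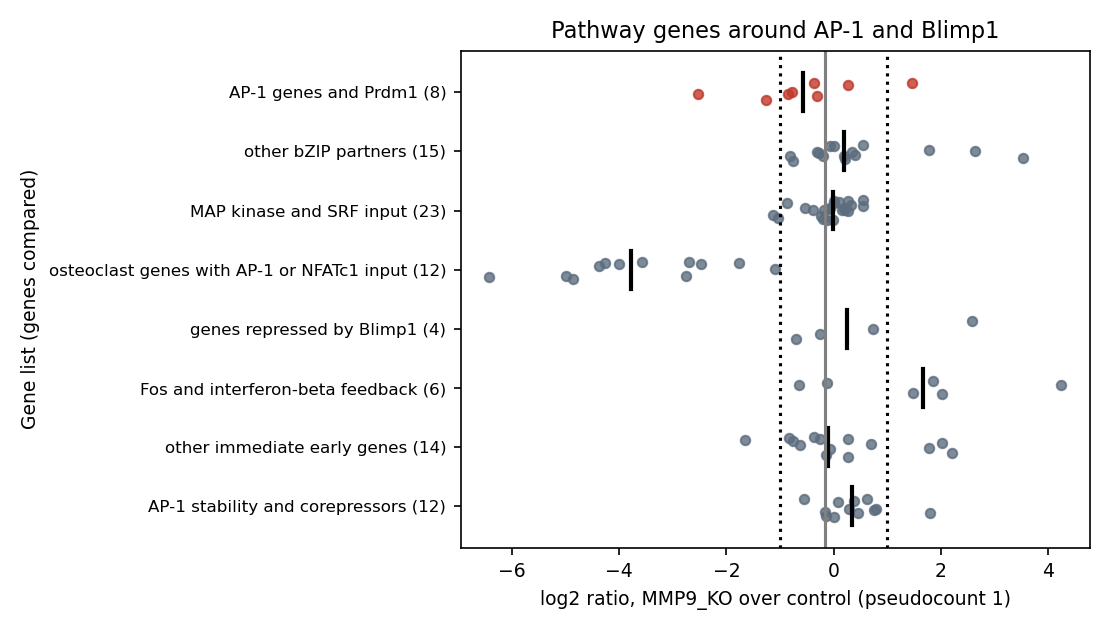
Log2 ratios, MMP9_KO over control, of the compared genes in each list (1 point per gene, jittered in height), with the list median as a black bar, the median of all genes as a grey line and 2-fold as dotted lines. AP-1 genes and Prdm1 (red) have a median of -0.57; the osteoclast genes lie below -1 throughout, and the MAP kinase genes gather near 0.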

How the data were processed

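RNA of 1 MMP9_KO and 1 control culture was sequenced as polyadenylated RNA on an Illumina instrument, per the labels. Reads were aligned with TopHat to build mm9, per the submitters' processing notes; no source used here names the counting program, the annotation, the use of strand or the normalisation. Values in the deposited table are log2, and the table is named normalised RPKM. Converted from log2, 99.99% of the values above the minimum lay within 0.05 of whole multiples of 1 step per library (0.0238 in MMP9_KO, 0.0248 in control), for genes of any length, so they were read as read counts times 1 factor. Genes at 0.9 of the step were set to 0 reads.

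Genes with a mean of at least 1 were compared by log2 ratio with a pseudocount of 1, and called at 2-fold. Fold intervals are exact binomial (Clopper-Pearson) 95% intervals on the reads of both libraries; those of shares, sums and ratios of ratios come from error propagation. All cover counting error only. No test between groups was possible. Transcript length, GC content and overlaps came from GENCODE M21 (GRCm38) by Ensembl identifier, with 23607 matched and GC known for 96.2% of compared genes; it is another build than mm9. Promoters are RefSeq, GRCm38.p6. The genes named are the 10 of the set, Mmp9, and from 7 pathway lists the first 3 genes and those past 2-fold. Added to them is the gene nearest to Prdm1 by log2 ratio in the list of other bZIP genes. Id3, Myc and the marker genes were chosen for naming after their values were seen. The same measure for Fosl1 gave Batf and is not used, since Batf had 0 control reads. Some genes that this rule names are not reported here. The set and the lists were proposed with earlier results of these data known, although the rule for the set uses gene symbols alone. Calls and intervals were tried on simulated reads with counting error alone, for genes with a mean of at least 5. Such reads hold no spread between cultures, so the trial says nothing about it. Python 3.11.15, NumPy 2.4.6, pandas 2.3.3, SciPy 1.17.1 and Matplotlib 3.10.9 were used. Alternatives were pseudocounts of 0.1 and 5, no filter or a mean of at least 5, 3 scalings of MMP9_KO, centring in 20 bins of GC content, and other lengths.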

Additional observations from a re-analysis of the deposited data

How the results depend on the processing

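No paired analysis was possible because each group had a single library, and leaving out a library would leave no comparison. The scalings moved every log2 ratio up by 0.18 (median set to 0), 0.18 (trimmed mean) or 0.29 (equal sums) before the pseudocount. Fosl1 alone of the set was higher by at least 2-fold and Fosl2 and Prdm1 lower under the values as deposited. With a pseudocount of 5, 0 genes of the set were higher; equal sums and GC centring each left 1 lower, Prdm1. Over all compared genes a pseudocount of 5, which by construction shrinks the ratios of low genes, gave 255 higher and 603 lower, equal sums 674 higher and 684 lower, and centring by GC content 682 lower. No gene of the set that was past 2-fold changed sign under the 3 scalings or GC centring. The other pseudocounts and the level filters cannot change a sign. The other counts over the set and over all genes stayed within 1.5 times. Recounts within the 7 pathway lists, and the family sums under the scalings, were added after seeing the data. MAP kinase genes had 0 lower under each scaling and GC centring, immediate early genes 2 lower with a pseudocount of 0.1, and other bZIP genes 1 higher at a mean of at least 5. Equal sums gave 2 higher for genes repressed by Blimp1 and 3 for AP-1 stability genes. The other 104 list counts stayed within 1.5 times. Fos family sums were 1.68 to 1.81-fold and Jun family sums 1.09 to 1.17-fold lower in MMP9_KO under the scalings. Of the log2 ratios of the 8 compared genes, 37 alternative values stayed inside their counting interval and 27 left it. The 37 include those with no filter or a mean of at least 5, which leave each ratio as it was. The tally is thus no measure of stability. Without division by length Fosl2 made up 85.1% of the Fos family in MMP9_KO and 90.5% in control, and with the union of exons 57.5% in MMP9_KO and 69.7% in control. Junb made up 68.5% of the Jun family in MMP9_KO and 64.5% in control without division by length, and 70.2% in MMP9_KO and 65.0% in control with the union of exons. The lower share of Fosl2 and the higher share of Junb in MMP9_KO were seen with each length, since a length enters both libraries alike. Depth limits Fosb and Batf3 most, with at most 9 reads in a library. The causes of these shifts were otherwise not tested.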

Other observations

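A list of genes that control the stability or activity of AP-1 proteins was also read. Of 12 compared, 1 was higher in MMP9_KO past 2-fold, 0 lower and 11 within that range, so 8.33% were past 2-fold, near the 13.6% of all genes. The median log2 ratio was 0.34, or 0.62 with the libraries set to equal sums, where 3 were higher. The higher one was Dusp5, a nuclear phosphatase gene that acts on ERK, at 11.4 in MMP9_KO and 2.56 in control (4.45-fold, 3.59 to 5.56). The ubiquitin ligase genes Fbxw7, Itch and Rfwd2, whose products mark Jun proteins for degradation, had log2 ratios of 0.38, -0.16 and 0.63.

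RefSeq promoter windows were matched for 6 of the 12 osteoclast genes with AP-1 or NFATc1 input, with 10 windows in all. The TRE letters TGANTCA were in 0 of these windows and the CRE type letters TGACNTCA in 2, of Calcr and Clcn7, beside 6.75% and 7.49% of all windows. No match says only that these letters are not in the 250 bases before a listed start.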
